A study of Mus musculus with 12 samples.

Results

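Homozygous MPI 118Q/118Q knockin mice were compared with wild type littermates of the same line, with 3 arrays in each group, 6 of the 12 arrays of the series. The arrays were taken by their titles, and every gene that passed the filter on low values was described, 12671 in all. All mice were on a C57BL/6 background and 6 weeks old, and the tissue was the whole cerebellum. The series text calls the knockin a model of Sca6, and the labels give the genotypes as MPI 118Q-KI and MPI 118Q-WT, with no other treatment. The other 6 arrays are the MPI 11Q/11Q knockin and its own littermates, 3 each, of the same age and background. They entered the model for the spread between arrays and for the test of whether the 118Q effect differed from the 11Q effect. The wild type littermates carry no knocked-in sequence, so the comparison within the 118Q line takes the long glutamine tract together with everything else that was knocked in.

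Spinocerebellar ataxia type 6 is an inherited ataxia caused by an expanded CAG repeat in CACNA1A, the gene for the pore of the P/Q-type calcium channel. The repeat codes for glutamine, written Q, and Purkinje cells, the only output neurons of the cerebellar cortex, are the cells most affected. Microglia, the resident macrophages of the brain, take up dying neurons and change their gene expression as they do so, with Trem2 and its partner Tyrobp as a central receptor pair.

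Values are levels on a log2 scale from the authors' RMA processing, and all differences are on that scale. Differences are knockin minus littermates with their standard errors from limma, and calls are genes whose p, adjusted by Benjamini-Hochberg over the 12671 genes, is below 0.05. The number of arrays limits the precision, and the median standard error was 0.139. Markers of the tissue were bright in all 6 arrays: Gabra6, the granule cell GABA receptor subunit, read 10.4 to 10.6, and Pcp2, a Purkinje cell protein, 10.3 to 10.7. In RNA from whole tissue, fewer cells of a type and less RNA per cell cannot be told apart.

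Some control signals moved with the genotype. The 18S ribosomal RNA signal read 9.78, 9.66 and 10.3 in littermates and 9.23, 8.63 and 8.56 in knockins, a difference of -1.12 with no overlap (two-sided exact permutation p = 0.1, the smallest that 3 against 3 allows; 0.24 adjusted over 12 measures). Of the spike-in controls, phe read 0.60 and lys 0.36 higher without overlap, dap and thr 0.45 and 0.42 higher with overlap, and the hybridization controls bioB, bioC, bioD and cre overlapped. The 3′ minus 5′ signal of Gapdh differed by -0.06 without overlap and that of beta-actin by -0.12 with overlap. With the 18S signal as a covariate no gene was called (0 of 12671, with 893 at an unadjusted p below 0.05). As the 18S signal went with the genotype without overlap, this fit can hardly tell the 2 apart. Counts and medians under the 18S covariate are therefore descriptions and do not assign a difference to either. The part of 18S in the results below was not tested beyond this fit.

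Across all genes the knockin differed in both directions. Of 12671 genes, 24 were called (0.189%), 10 higher (0.0789%) and 14 lower (0.11%). At an adjusted p below 0.1 there were 210 higher (1.66%) and 181 lower (1.43%). At an unadjusted p below 0.05 there were 1516 higher (12%) and 849 lower (6.7%). The 3 knockin arrays lay above all 3 littermate arrays in 15.1% of genes and below them in 7.25%. They lay above all 9 other arrays of the series in 8.79% and below all 9 in 3.99%. The median difference of all genes was 0.06, and 7601 genes lay above 0. Large differences were more often negative: 33 genes read over 1 log2 unit lower and 7 over 1 unit higher, against 321 and 288 beyond 0.5.

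**Figure D1:**
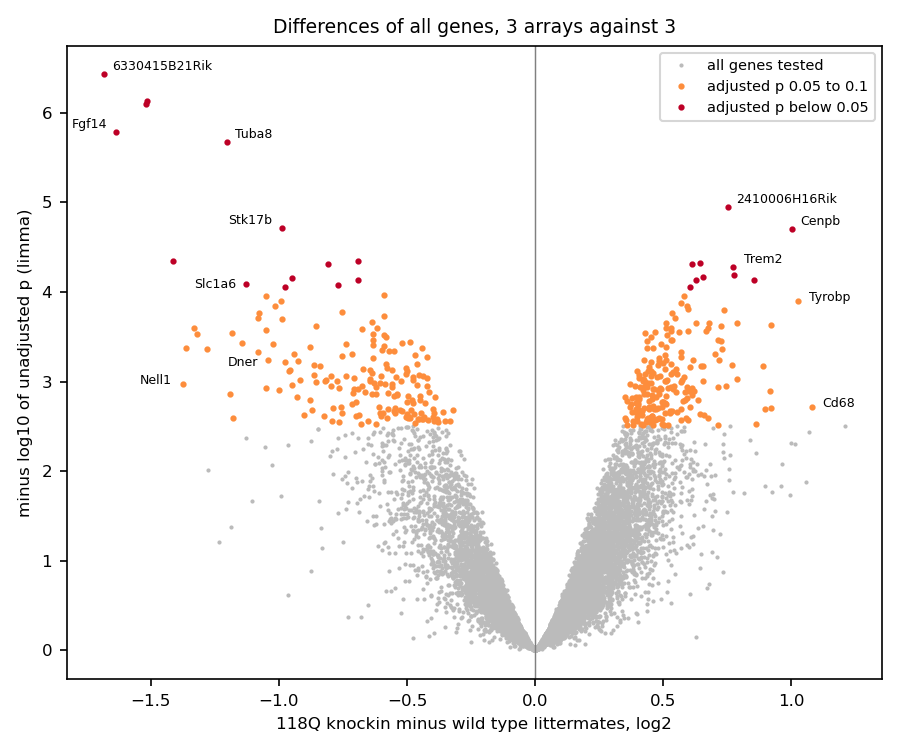
Difference between 118Q knockin and littermate means on the log2 scale (x axis) against minus log10 of the unadjusted limma p (y axis), 1 point per gene. The 24 genes with an adjusted p below 0.05 are dark red and those between 0.05 and 0.1 orange, 200 higher and 167 lower; the lower side reaches further from 0.

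Of the 14 genes that fell, 9 code for proteins, several of them known from neurons. Fgf14, which regulates voltage-gated sodium channels and is mutated in another ataxia, read 8.09, 7.99 and 8.31 in littermates and 7.01, 5.98 and 6.48 in knockins. No knockin array came near the lowest littermate array, and Fgf14 fell by 1.64 ± 0.20 (SE; adjusted p = 0.00521). Tuba8, an alpha tubulin, read 6.41, 6.24 and 6.41 against 5.49, 4.89 and 5.06, and fell by 1.20 ± 0.15 (adjusted p = 0.00533). Its other probe set gave -1.25, and of the other 2 of Fgf14 1 gave -1.74 and 1 -0.11.

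Slc1a6, the glutamate transporter of Purkinje cell spines, read 8.29, 8.25 and 8.21 in littermates and 7.73, 6.69 and 6.95 in knockins. The groups did not overlap, but knockin replicate 1 lay well above the other knockin arrays, and Slc1a6 fell by 1.13 ± 0.20. Mtss1, which shapes dendritic spines through actin, read 8.37, 8.28 and 8.58 against 7.85, 7.39 and 7.56 (-0.81 ± 0.13). Atp2a2, the calcium pump that fills the endoplasmic reticulum, read 10.4, 10.2 and 10.4 against 9.88, 9.44 and 9.57 (-0.69 ± 0.12). In both, knockin replicate 1 was again the least low of the knockin arrays.

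Dpp10, an auxiliary subunit of A-type potassium channels, read 6.93, 7.19 and 7.37 in littermates and 6.62, 6.21 and 6.36 in knockins (-0.77 ± 0.14). Stk17b, a kinase of the death-associated protein kinase family, read 7.32, 7.53 and 7.73 against 6.79, 6.29 and 6.54 (-0.99 ± 0.15). Ptchd4, a patched-domain membrane protein, read 6.26, 6.43 and 6.37 against 5.85, 5.59 and 5.54 (-0.69 ± 0.11). None of these 3 genes overlapped between groups. Flt1, the VEGF receptor of vessels, was the one vascular gene among the calls, at 5.08, 4.55 and 5.10 against 4.24, 3.82 and 3.82 (-0.95 ± 0.16).

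**Figure D2:**
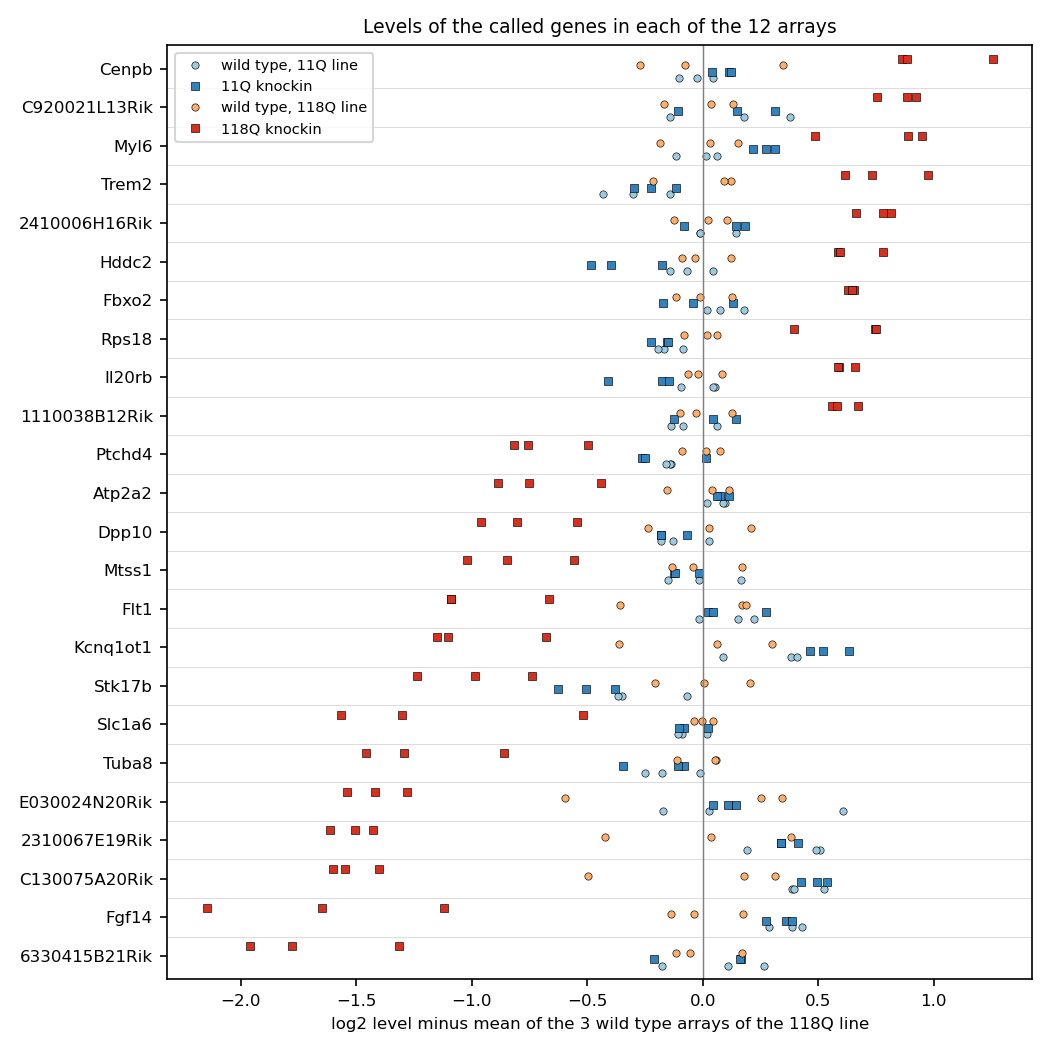
Level of each called gene in all 12 arrays, as log2 level minus the mean of the 3 wild type arrays of the 118Q line (x axis), 1 row per gene and 1 symbol per array. The 118Q knockin arrays (dark red squares) lie beyond the 9 other arrays in all 24 genes.

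The other 5 genes that fell are noncoding, and each lies within the span of a protein-coding gene in the RefSeq annotation (GRCm38.p6; strand was not compared). 6330415B21Rik, inside Ctnna2, read 4.74, 4.51 and 4.45 in littermates and 3.25, 2.61 and 2.79 in knockins (-1.68 ± 0.18, adjusted p = 0.00333). 2310067E19Rik, inside Nfib, read 5.58, 5.12 and 5.92 against 4.04, 3.93 and 4.11 (-1.52 ± 0.17), and C130075A20Rik, inside Lhfp, 6.45, 5.77 and 6.58 against 4.66, 4.72 and 4.87 (-1.52 ± 0.17). These 3 had the smallest p of all genes, and the groups lay far apart in each. E030024N20Rik, inside Gnaq, fell by 1.41 ± 0.23, and Kcnq1ot1, the imprinted antisense RNA within Kcnq1, by 0.98 ± 0.17.

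The genes around them had smaller differences, none called. Nfib itself differed by -0.13 ± 0.13 (adjusted p = 0.635), Lhfp by 0.10 ± 0.09 (adjusted p = 0.581), Ctnna2 by -0.29 ± 0.15 (adjusted p = 0.315) and Gnaq by -0.26 ± 0.09 (adjusted p = 0.178). Over all 68 measured noncoding genes inside a protein-coding gene, 13 had an unadjusted p below 0.05 on the lower side and 5 on the higher side (19.1% and 7.35%). Over the 404 noncoding genes elsewhere the counts were 11 lower and 79 higher (2.72% and 19.6%). This grouping was made after the values were seen and is a description.

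Probe sets that carry no single gene symbol leaned the same way. Of 4234 such probe sets above the filter, 912 were lower (21.5%) and 319 higher (7.53%) at an unadjusted p below 0.05, against 6.7% and 12% of the genes, with a median difference of -0.08. When all 27003 probe sets were tested together, an alternative added after seeing the data, 605 were called, 127 higher and 478 lower. Of these, 323 lower and 21 higher had no single symbol, which is 8.12% of such probe sets, against 1.15% of those with 1 symbol. All 24 genes above stayed called, among 144 genes called by their brightest probe set in that fit. When only the probe sets with 1 symbol were tested, each on its own, 8 of the 24 stayed called.

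Direction also went with the length of a gene, measured as its span from start to end. Genes were divided into 4 equal groups by span. In the shortest group, with a median span of 5011 bases, 21.6% were higher and 2.78% lower at an unadjusted p below 0.05. In the longest group, with a median span of 111229 bases, 3.70% were higher and 16.4% lower. The median differences of the groups were 0.15, 0.10, 0.03 and -0.07 from shortest to longest. At an adjusted p below 0.1 the longest group held 7 higher and 122 lower genes, and the shortest 109 and 17. After a trend with span was removed from each array, 7 of the 24 genes stayed called, all of them lower.

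**Figure D3:**
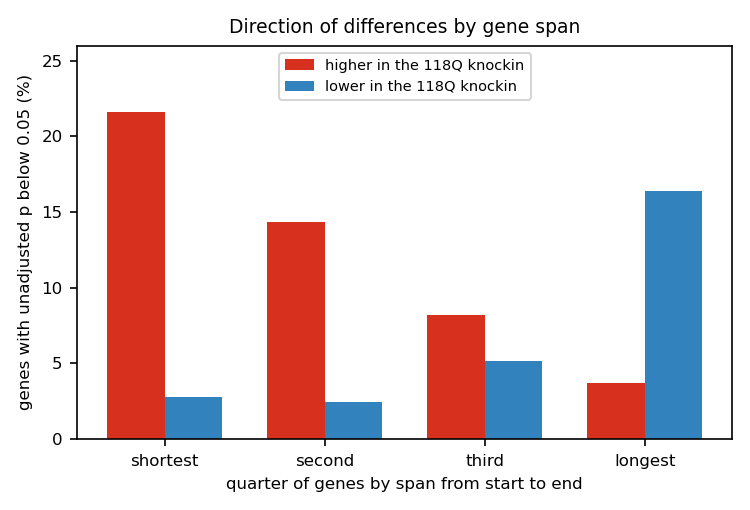
Share of genes with an unadjusted p below 0.05 (y axis, %) in each of 4 equal groups of genes by span (x axis), for genes higher and lower in the 118Q knockin. The higher share drops from 21.6% to 3.70% and the lower share climbs from 2.78% to 16.4% between the shortest and longest group.

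Among the 10 genes that rose, Trem2, the microglial receptor for lipids and debris, read 2.97, 2.94 and 2.63 in littermates and 3.82, 3.46 and 3.58 in knockins (0.77 ± 0.13). Cenpb, which binds centromeric DNA, rose most, from 5.00, 5.42 and 4.80 to 5.94, 5.96 and 6.33 (1.00 ± 0.15, adjusted p = 0.0317). Fbxo2, the ubiquitin ligase subunit for glycoproteins of neurons, read 6.75, 6.89 and 6.65 against 7.42, 7.39 and 7.41 (0.64 ± 0.11). The knockin arrays of Fbxo2 lay close together, while those of Trem2 spread as far as the littermates did.

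Myl6, a myosin light chain, read 4.79, 4.67 and 4.45 in littermates and 5.12, 5.52 and 5.59 in knockins (0.77 ± 0.13). Il20rb, a cytokine receptor chain, read 5.46, 5.60 and 5.50 against 6.18, 6.11 and 6.10 (0.61 ± 0.10). Hddc2, an HD-domain protein, read 3.29, 3.51 and 3.35 against 4.17, 3.97 and 3.98 (0.66 ± 0.11). All 3 were separated between groups, with knockin replicate 1 the lowest knockin array for Myl6 and the highest for Il20rb and Hddc2.

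Rps18, a protein of the small ribosomal subunit, read 8.54, 8.69 and 8.64 in littermates and 9.02, 9.37 and 9.37 in knockins (0.63 ± 0.11). Of its other probe sets, those of similar brightness gave 0.62 and 0.25 and a dim one -0.10. The remaining 3 genes that rose are noncoding: 2410006H16Rik (0.75 ± 0.11, adjusted p = 0.0238), 1110038B12Rik (0.60 ± 0.11) and C920021L13Rik (0.85 ± 0.15). The spans of 2410006H16Rik and 1110038B12Rik hold small nucleolar RNA genes, which guide the modification of ribosomal RNA: Snord49a, Snord49b and Snord65 in the one and Snord52 in the other.

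The calls rest on few arrays. Only 4 of the 24 genes, Fgf14, 6330415B21Rik, 2310067E19Rik and C130075A20Rik, were called in each of the 6 fits that left out 1 array, Tuba8 in 5, and the other 19 in 3 or fewer. Dropping a littermate array left 6 calls (replicate 1), 44 (replicate 2) or 7 (replicate 3), and dropping a knockin array 707 (replicate 1), 5 (replicate 2) or 4 (replicate 3). Centring arrays on their median gave 3 higher and 7 lower, and quantile normalization 13 higher and 30 lower, against 10 and 14. A fit of the 6 arrays of the 118Q line alone called no gene (2006 at an unadjusted p below 0.05). The 24 genes had unadjusted p of at most 0.00108 there, but they were chosen by the same differences between these arrays. Under the 18S covariate all 24 kept their sign and 13 had an unadjusted p below 0.05.

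The difference between the 118Q and 11Q effects was called for no gene (0%; 1392 at an unadjusted p below 0.05, smallest adjusted p = 0.132, and 26 probe sets called when all probe sets were tested together). For the 24 genes, the 11Q effects ran from -0.30 to 0.28, with 9 above 0. The genes were chosen by their 118Q effect, which fixes the sign of the difference, and its adjusted p ran from 0.132 to 0.393. The 11Q effect called no gene by itself (536 at an unadjusted p below 0.05).

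Short of the threshold lay 200 higher and 167 lower genes with an adjusted p of 0.05 to 0.1. On the higher side were further genes of phagocytes: Tyrobp, the adaptor of Trem2, at 4.50, 5.06 and 4.55 in littermates and 6.05, 5.37 and 5.78 in knockins (1.03 ± 0.19, adjusted p = 0.0549). Cd68, a lysosomal protein of macrophages, read 2.02, 2.62 and 2.00 against 3.70, 2.86 and 3.31 (1.08 ± 0.28, adjusted p = 0.0853), and Cd52, a surface glycoprotein of leukocytes, differed by 0.92 ± 0.24. In each, knockin replicate 1 was the furthest from the littermates and replicate 2 the nearest, whereas for Slc1a6, Mtss1 and Atp2a2 replicate 1 was the nearest and replicate 2 the furthest. Others on this side were Bcl2l11, the proapoptotic BH3 protein BIM (0.86 ± 0.23), Thbs3, a thrombospondin (0.90), S100a1, a calcium-binding protein (0.79), Gnmt, a glycine methyltransferase (0.79), Tnfrsf12a, the TWEAK receptor (0.72), and the noncoding Zfas1 (0.72) and Snord104 (0.71). Olfml1 (0.92), Smim3 (0.75), Drap1 (0.73) and Lncppara (0.73) were also on this side. In the list of BCL2 family, caspase and cell death genes, values ran from -0.71 to 0.86, with a median of 0.06. Of its 23 measured members 2 were higher (8.70%) and 1 lower (4.35%) at an unadjusted p below 0.05, beside 12% and 6.7% of all genes.

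The 15 largest on the lower side had varied roles. Grm7, a presynaptic metabotropic glutamate receptor, read 4.41, 4.51 and 5.02 in littermates and 3.96, 2.68 and 3.35 in knockins (-1.32 ± 0.27). Kalrn, the spine guanine nucleotide exchange factor kalirin, read 5.34, 5.17 and 5.49 against 4.86, 3.98 and 3.92 (-1.08 ± 0.21). Both were separated, with replicate 1 the least low knockin array. Further members were Nell1 (-1.38), Shisa6, an AMPA receptor auxiliary protein (-1.36), Strip2 (-1.28), the receptors Gfra2 (-1.08) and Ret (-1.05) of the GDNF family, Dgkh, a diacylglycerol kinase (-1.05), Dner, a Notch ligand of Purkinje cells (-1.04), Plxdc1 (-1.08), Acta2, smooth muscle actin (-1.14), St6galnac3 (-1.19), Far2 (-1.05), Slc35f1 (-1.02) and the noncoding Phxr4, which lies inside Maml2 (-1.33). Their adjusted p lay between 0.0527 and 0.0742.

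Lists of cell type and pathway genes are described by counts and medians, beside 12% higher and 6.7% lower at an unadjusted p below 0.05 and a median of 0.06 over all genes. No list was tested as a set. Lists share members and are not independent: Slc1a6 is among the Purkinje and ataxia genes, and Fgf14 among the sodium channel and ataxia genes. With the 18S covariate 5.70% of all genes were higher and 1.35% lower, and with the span trend removed 6.83% and 7.89%. Leaving out 1 array moved the higher share between 7.13% (without knockin replicate 3) and 14.2% (without knockin replicate 1). The lower share moved between 4.16% (without wild type replicate 3) and 8.89% (without knockin replicate 1). Counts of members under these settings are read beside those shares, as fewer or more genes of every kind pass there.

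Purkinje cell markers were the list furthest below 0. Of 37 measured, 35 lay below 0 and 25 were lower at an unadjusted p below 0.05, none higher, with a median of -0.63. Slc1a6, Mtss1 and Atp2a2 passed the test, and 12 had an adjusted p below 0.1. Calb1, the calcium buffer calbindin, read 10.7, 10.8 and 10.9 in littermates and 10.6, 9.54 and 9.96 in knockins (-0.76 ± 0.19, adjusted p = 0.0853). Ppp1r17, a phosphatase inhibitor of Purkinje cells, read 8.48, 8.60 and 8.87 against 8.44, 7.18 and 7.62 (-0.90 ± 0.24, adjusted p = 0.0904). In both genes replicate 1 lay close to the littermates and replicates 2 and 3 far below them.

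Not every abundant Purkinje transcript was low. Pcp2 read 10.6, 10.7 and 10.3 in littermates and 10.6, 10.7 and 10.7 in knockins (0.14 ± 0.11, adjusted p = 0.527), and Pvalb, parvalbumin, 10.4, 10.5 and 10.3 against 10.4, 10.4 and 10.4 (-0.01 ± 0.10, adjusted p = 0.962). For the whole list, the median deviation from the littermate mean was -0.17 in knockin replicate 1, -0.69 in replicate 2 and -0.75 in replicate 3, against -0.03 to 0.10 in the littermates. Leaving out 1 array moved the list median between -0.76 and -0.45. With the 18S covariate it was -0.15, with 0 members at an unadjusted p below 0.05, and with the span trend removed -0.61, with 27.

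**Figure D4:**
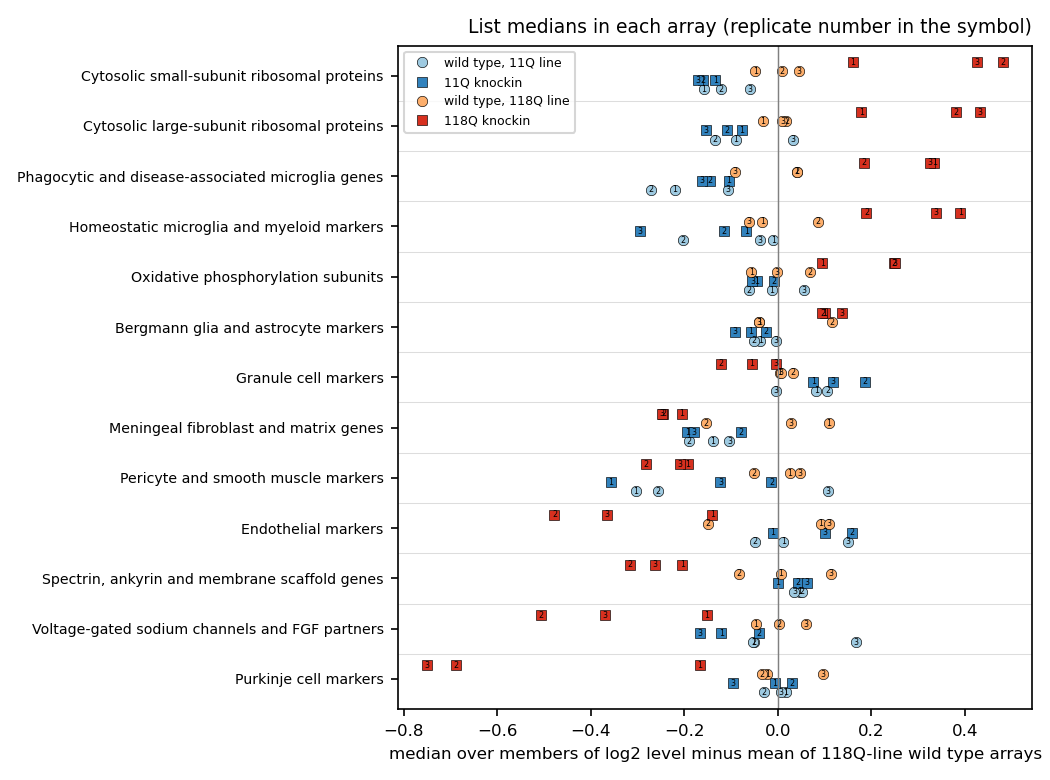
Median over a list's members of the log2 level minus the mean of the 118Q-line wild type arrays (x axis), 1 symbol per array with its replicate number, for 13 lists. Purkinje markers are at -0.17 in knockin replicate 1 and at -0.69 and -0.75 in replicates 2 and 3; both ribosomal protein lists are lowest among the knockins in replicate 1.

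Other neurons differed less. Granule cell markers had a median of -0.03 (25 measured, 5 lower and 1 higher at an unadjusted p below 0.05, with 0 lower without wild type replicate 3), which turned to 0.06 when the probe sets of each gene were averaged and to 0.02 without knockin replicate 2. Tiam1, a Rac exchange factor, had the lowest value, -0.31 ± 0.10 (adjusted p = 0.149), while 12 of the 25 lay above 0 and the highest was 0.40. Cerebellar interneuron markers had a median of -0.22 (18 measured, 5 lower, from 1 without knockin replicate 2 to 9 without knockin replicate 1), or 0.04 with the 18S covariate, with Kit at -0.58 and Lgi2 at -0.67.

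Several lists of excitability genes leaned lower, while the medians of others lay near 0. Of 11 sodium channel genes and FGF partners, 5 were lower at an unadjusted p below 0.05 and none higher (median -0.31, or 0.01 with the 18S covariate). Besides Fgf14, Scn8a, the sodium channel of Purkinje axons, read 7.90, 7.68 and 7.95 in littermates and 7.42, 7.20 and 7.38 in knockins (-0.51 ± 0.11, adjusted p = 0.0685), and Scn4b, the beta subunit of resurgent current, differed by -0.79 ± 0.21. Of 21 calcium pumps, exchangers and buffers, 8 were lower and none higher (median -0.18, or -0.12 with 1 lower under the 18S covariate), with Atp2a3 at -0.93 ± 0.23 and Slc8a1, a sodium-calcium exchanger, at -0.77 ± 0.21. Of 30 genes of metabotropic glutamate signalling and calcium release, 11 were lower and 2 higher (median -0.20, or 0.01 with the 18S covariate), and 6 and 7 were lower without knockin replicate 2 and wild type replicate 3, with the phospholipase Plcb3 at -0.52 ± 0.11.

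Cacna1a, the knocked-in gene, read 6.09, 5.55 and 6.19 in littermates and 5.67, 5.66 and 5.50 in knockins (-0.34 ± 0.15, adjusted p = 0.264). The groups overlapped through wild type replicate 2. Where its probe sets lie relative to the knocked-in sequence is not given in the sources used here, so its level does not check the genotype. Of 18 calcium channel subunits, 5 were lower and none higher (median -0.12, or 0.01 with the span trend removed), and 3 were lower without any 1 of wild type replicates 2 and 3 and knockin replicates 2 and 3. Cacna2d2, the alpha2delta-2 subunit of Purkinje channels, read 7.53, 7.44 and 7.48 against 7.08, 6.45 and 6.65 (-0.75 ± 0.14, adjusted p = 0.0572), and Cacna1g, a T-type pore, differed by -0.58 ± 0.16. None of the 20 measured genes nearest to Cacna1a on its chromosome was called, beside 0.189% of all genes. At an unadjusted p below 0.05, Dcaf15, D8Ertd738e, Ier2, Lyl1, Dand5 and Farsa were higher and Calr lower, beside 12% and 6.7% of all genes. D8Ertd738e (0.47 ± 0.12) and Calr (-0.32 ± 0.14) were the highest and the lowest of the 20.

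Of 33 potassium channel genes 7 were lower and 4 higher, and of 26 ionotropic glutamate receptor genes 6 were lower and none higher. Their medians, -0.02 and 0.03, changed sign under several settings, and without knockin replicate 2 the lower members numbered 4 and 3 (for potassium channels also 4 without wild type replicate 3). Of 33 synaptic vesicle genes 9 were lower and none higher (median -0.14, or 0.00 with the 18S covariate), and 3 to 5 were lower when replicate 2 or 3 of either group was left out, with Pclo, piccolo, at -0.69. Of 21 GABA and glycine genes 5 were lower and 1 higher (median -0.12), with 8 lower without knockin replicate 1 and 3 without knockin replicate 2 or 3, and with Slc12a5, the chloride transporter KCC2, at -0.45 and Gad1, the GABA-synthesizing enzyme, at -0.79.

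The membrane skeleton stood low as well. Of 22 spectrin, ankyrin and scaffold genes 13 were lower and none higher at an unadjusted p below 0.05 (median -0.30). Ank2, ankyrin-B, read 9.32, 9.28 and 9.33 in littermates and 8.89, 8.81 and 8.97 in knockins (-0.42 ± 0.10, adjusted p = 0.0693). Macf1 and Dst, linkers of actin and microtubules, differed by -0.63 ± 0.13 and -0.49 ± 0.10. With the span trend removed the median of the list was -0.14, with 4 members lower, and with the 18S covariate -0.13, with 2. Without knockin replicate 2 there were 8 lower members and without wild type replicate 3 there were 7. Of 38 adhesion and guidance genes 13 were lower and none higher (median -0.24, or -0.05 with the span trend removed and -0.08 with the 18S covariate), with 8 lower without wild type replicate 3, and with Sema7a at -0.46 ± 0.10 and Epha5 at -0.69.

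Microglial genes were on the higher side. Of 23 phagocytic and disease-associated microglia genes 11 were higher and none lower at an unadjusted p below 0.05 (median 0.28), 1 was called and 5 had an adjusted p below 0.1. Cyba, a subunit of the phagocyte oxidase, read 3.45, 3.66 and 3.53 in littermates and 4.27, 4.14 and 4.03 in knockins (0.60 ± 0.11, adjusted p = 0.0572). Of 23 homeostatic microglia and myeloid markers 8 were higher and none lower (median 0.25), with 5 higher without knockin replicate 1 and 3 without wild type replicate 3. Sparc, a matrix protein also made by other glia, read 9.50, 9.72 and 9.26 against 10.2, 9.93 and 9.93 (0.53 ± 0.14), and P2ry12, the purine receptor of surveying microglia, 2.58, 3.37 and 2.40 against 3.21, 3.52 and 3.60 (0.66 ± 0.22, adjusted p = 0.151). The P2ry12 groups overlapped, and Cx3cr1, the fractalkine receptor, differed by 0.36 ± 0.18 (adjusted p = 0.314).

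Complement genes of microglia, C1qa, C1qb and C1qc, differed by 0.59 ± 0.18, 0.73 ± 0.22 and 0.63 ± 0.20 (adjusted p = 0.135, 0.115 and 0.141). They were the 3 of 8 complement genes higher at an unadjusted p below 0.05, and with the 18S covariate 0 of the 8 were. With the 18S covariate the medians of the phagocytic and homeostatic lists were 0.43 and 0.32, with 8 and 2 members higher and 0 and 1 lower.

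Other immune lists held fewer higher members than the microglial lists. Of 27 interferon-stimulated genes 2 were higher and none lower (median -0.02, with a sign that varied over settings), of 21 Toll-like receptor and NF-kB genes 2 and none (median 0.08), and of 14 cytokine and chemokine genes 2 and none. Cxcl14, a chemokine, had the largest value of the last, 1.01 (adjusted p = 0.115). Of 16 MHC and peptide loading genes 5 were lower and 1 higher (median -0.02), with 3 lower when replicate 1 of either group was left out, 1 without littermate replicate 2 and 2 without knockin replicate 3. H2-D1 gave -0.99 (adjusted p = 0.182), and its other probe sets ran from -1.93 to 1.11. Of 8 blood cell markers 3 were higher at an unadjusted p below 0.05 and none lower (median 0.06). These were neutrophil genes: S100a9 at 2.64, 1.81 and 2.87 in littermates and 3.66, 3.83 and 3.04 in knockins (1.07 ± 0.30, adjusted p = 0.104), S100a8 by 0.92 and Ngp by 0.48, none with overlap, while Ltf, also of neutrophils, lay lower without overlap (-0.11) and Alas2, of red cells, gave -0.39 with overlap. S100a8 and S100a9 also differed by 0.69 and 0.69 in the 11Q line, and the part of blood in these values was not tested.

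Vascular genes were on the lower side. Of 28 endothelial markers 10 were lower and 1 higher (median -0.28), 1 was called and 3 had an adjusted p below 0.1. The lower count was 6 without wild type replicate 1, 5 without knockin replicate 2 and 6 without knockin replicate 3, and leaving out 1 array moved the median between -0.41 and -0.22. Ptprb, the endothelial phosphatase VE-PTP, read 4.71, 4.32 and 4.67 in littermates and 4.11, 3.65 and 3.67 in knockins (-0.76 ± 0.16, adjusted p = 0.0644), and Abcb1a, the efflux pump P-glycoprotein, differed by -0.96 ± 0.22. Of 16 pericyte and smooth muscle markers 5 were lower and none higher (median -0.21), with Vtn, vitronectin, at -0.55 ± 0.14. Of 28 meningeal and matrix genes 7 were lower and 1 higher (median -0.24), with 11 lower when littermate replicate 2 was left out, and 4 when littermate replicate 1 or knockin replicate 3 was, and with Col4a1, of the basement membrane, at -0.74 ± 0.17 and Fn1, fibronectin, at -0.77 ± 0.18. With the 18S covariate the endothelial and pericyte medians turned to 0.09 and 0.01, and that of the meningeal list was -0.07.

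Other glial lists had few members past the unadjusted threshold. Bergmann glia and astrocyte markers had 3 of 29 members higher and 3 lower (median 0.05), with Gfap, the intermediate filament of reactive astrocytes, at 4.43, 5.04 and 3.87 in littermates and 4.94, 5.09 and 5.02 in knockins (0.57 ± 0.23, adjusted p = 0.221). The Gfap groups overlapped, and knockin arrays were closer together than littermates. Gfap had the highest value of the 29 markers, the lowest was -1.11, and 10 lay below 0. Oligodendrocyte genes had 1 of 25 higher and none lower (median 0.13, or -0.09 with the 18S covariate), with Mobp at 0.66 ± 0.19 (adjusted p = 0.115). Oligodendrocyte precursor markers had 2 of 12 lower and none higher, with a median of -0.12.

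Ribosomal protein genes formed the most uniform list on the higher side. All 22 measured genes of the small subunit and all 23 of the large subunit lay above 0, with medians of 0.34 and 0.32, and 17 and 18 had an unadjusted p below 0.05. Rps18 was called, and 8 and 3 had an adjusted p below 0.1. Rps27 read 3.79, 3.78 and 3.54 in littermates and 4.28, 4.39 and 4.18 in knockins (0.58 ± 0.11, adjusted p = 0.0527), Rps14 9.60, 9.69 and 9.69 against 9.96, 10.3 and 10.2 (0.49 ± 0.10), and Rpl37a differed by 0.46 ± 0.11. None overlapped, and in Rps14 and Rpl37a replicate 1 was the lowest knockin array. With the span trend removed the medians were 0.20 and 0.18, with 9 and 7 members higher, and with the 18S covariate 0.23 and 0.17, with 0 and 1. Without knockin replicate 3 the large subunit had 11 higher members.

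Many noncoding genes that hold small nucleolar RNAs were higher too. Of 21 such genes, grouped after the values were seen, 13 were higher and 1 lower at an unadjusted p below 0.05 (median 0.43), 2 were called and 9 had an adjusted p below 0.1. Gas5, which holds Snord47, read 7.71, 7.67 and 7.68 in littermates and 8.19, 8.20 and 8.31 in knockins (0.55 ± 0.11, adjusted p = 0.0572). Snhg8 differed by 0.51 ± 0.13, Snhg3 by 0.58 ± 0.13 and Snhg12 by 0.45 ± 0.12, all without overlap. The one lower at that threshold was Snhg14, the long imprinted transcript with its Snord116 cluster, at -0.54 ± 0.20 (adjusted p = 0.175), with overlap. Ipw differed by -0.34 ± 0.18 without overlap (adjusted p = 0.327). Snhg17, Snhg18 and Snhg11 differed by only 0.01, 0.03 and -0.05.

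Ribosomal proteins and many host genes of small nucleolar RNAs are known to begin with a run of pyrimidines, the 5′ terminal oligopyrimidine tract. Starts of both kinds of gene are shown because many of their members were higher. Capitals mark a C at the annotated start and the unbroken pyrimidines after it, at least 4, read on the gene's own strand. The sequences are from RefSeq, GRCm38.p6, and run from 20 bases before the start to 20 bases from it on: Rps18 at chr17:33955646-33955685 (minus strand), Rps27 at chr3:90213629-90213668 (minus), 1110038B12Rik at chr17:34952449-34952488 (minus, the first of its annotated starts with the run), Gas5 at chr1:161035146-161035185 (plus, likewise) and Snhg8 at chr3:123508317-123508356 (minus).
Rps18: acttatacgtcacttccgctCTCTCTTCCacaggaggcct
Rps27: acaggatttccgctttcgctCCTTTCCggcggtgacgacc
1110038B12Rik: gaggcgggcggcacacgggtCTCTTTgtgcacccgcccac
Gas5: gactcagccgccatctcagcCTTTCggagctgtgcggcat
Snhg8: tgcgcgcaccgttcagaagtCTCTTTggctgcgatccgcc

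Such a start was found in 813 of 27025 genes in the promoter table (3.01%). It was found in 5 of 19 small-subunit genes with an entry (26.3%), 4 of 21 large-subunit genes and 4 of 19 small nucleolar RNA hosts (21.1%). Of the genes tested, 306 had it, with a median difference of 0.09, against 0.06 for the 9898 without. The match depends on the exact annotated start and is a description.

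Mitochondrial genes were higher in smaller steps. Of 73 oxidative phosphorylation subunits 35 were higher and none lower at an unadjusted p below 0.05 (median 0.21), with Ndufa6, of complex I, at 8.16, 8.28 and 8.25 in littermates and 8.59, 8.73 and 8.68 in knockins (0.44 ± 0.09, adjusted p = 0.0606). Of 74 mitochondrial ribosomal proteins 23 were higher and none lower (median 0.19), with Mrpl14 at 0.51. With the span trend removed the medians were 0.08 and 0.09, with 11 and 6 members higher, and with the 18S covariate 0.09 and 0.19, with 2 and 4. Higher oxidative phosphorylation subunits numbered 18 and 21 without wild type replicates 1 and 3 and 16 and 15 without knockin replicates 2 and 3. Of all genes, 9.24%, 9.77%, 9.06% and 7.13% were higher in these fits, in the same order. Higher mitochondrial ribosomal proteins numbered 13 without wild type replicate 1 and 12 without knockin replicate 3. Of 30 antioxidant and NRF2 target genes 10 were higher and 1 lower (median 0.19), with 6 higher without knockin replicate 2 or 3, 5 without wild type replicate 3 and 1 with the 18S covariate, and with Gpx4, the lipid peroxide reductase, at 0.44 ± 0.10. Glycolysis and citric acid cycle genes had 3 of 30 lower and 1 higher (median -0.11, or 0.01 with the 18S covariate).

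Protein folding genes were lower in part. Of 37 cytosolic chaperones 8 were lower and 1 higher (median -0.15, or -0.02 with 1 lower under the 18S covariate). Their values ran from -0.62 to 0.69, with 30 below 0 and 7 above. Hspa4, an exchange factor of HSP70, read 7.23, 6.86 and 7.05 in littermates and 6.31, 6.43 and 6.54 in knockins (-0.62 ± 0.12, adjusted p = 0.0572). Hsp90aa1 differed by -0.52 ± 0.14. Of 30 genes of endoplasmic reticulum folding and stress 6 were lower and 1 higher (median -0.05), with 3 lower without wild type replicate 1, and with Hsp90b1 at -0.50 ± 0.12. Proteasome subunits had 3 of 36 higher and none lower, with a median of 0.06 like that of all genes.

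Activity and stress hormone genes read high with wide spread. Of 23 immediate early genes 7 were higher and none lower (median 0.38), with Npas4, a neuronal activity factor, at 3.09, 2.85 and 1.93 in littermates and 3.18, 3.91 and 3.97 in knockins (1.06 ± 0.37, adjusted p = 0.159). Wild type replicate 3 was the lowest array for Npas4, and likewise for Per1, a clock gene that glucocorticoids induce, at 6.50, 6.40 and 5.37 against 6.78, 6.95 and 6.82 (0.76 ± 0.24, adjusted p = 0.128). Without wild type replicate 3 the median of the immediate early genes was 0.23, with 3 higher, and without knockin replicate 1 it was 0.29, with 4. Of 19 glucocorticoid-induced genes 6 were higher and none lower (median 0.39), with 3 higher without knockin replicate 1 (median 0.37). Without wild type replicate 3 there were 4 (median 0.33), and with the 18S covariate 1 (median 0.28). Of the immediate early genes, 3 were higher and 1 lower with the 18S covariate (median 0.36).

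Ataxia genes, 31 measured, held 11 lower and 2 higher at an unadjusted p below 0.05 (median -0.16), with Fgf14 and Slc1a6 called. Without wild type replicate 3 there were 7 lower, and with the 18S covariate 1 lower and 3 higher (median -0.05). Syne1, nesprin-1, read 8.77, 8.33 and 8.66 in littermates and 7.89, 7.95 and 8.15 in knockins (-0.59 ± 0.12, adjusted p = 0.0606), and Atxn2, whose repeat expansion causes another ataxia, differed by -0.38 ± 0.10 (adjusted p = 0.0921). Both were separated between groups.

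**Figure D5:**
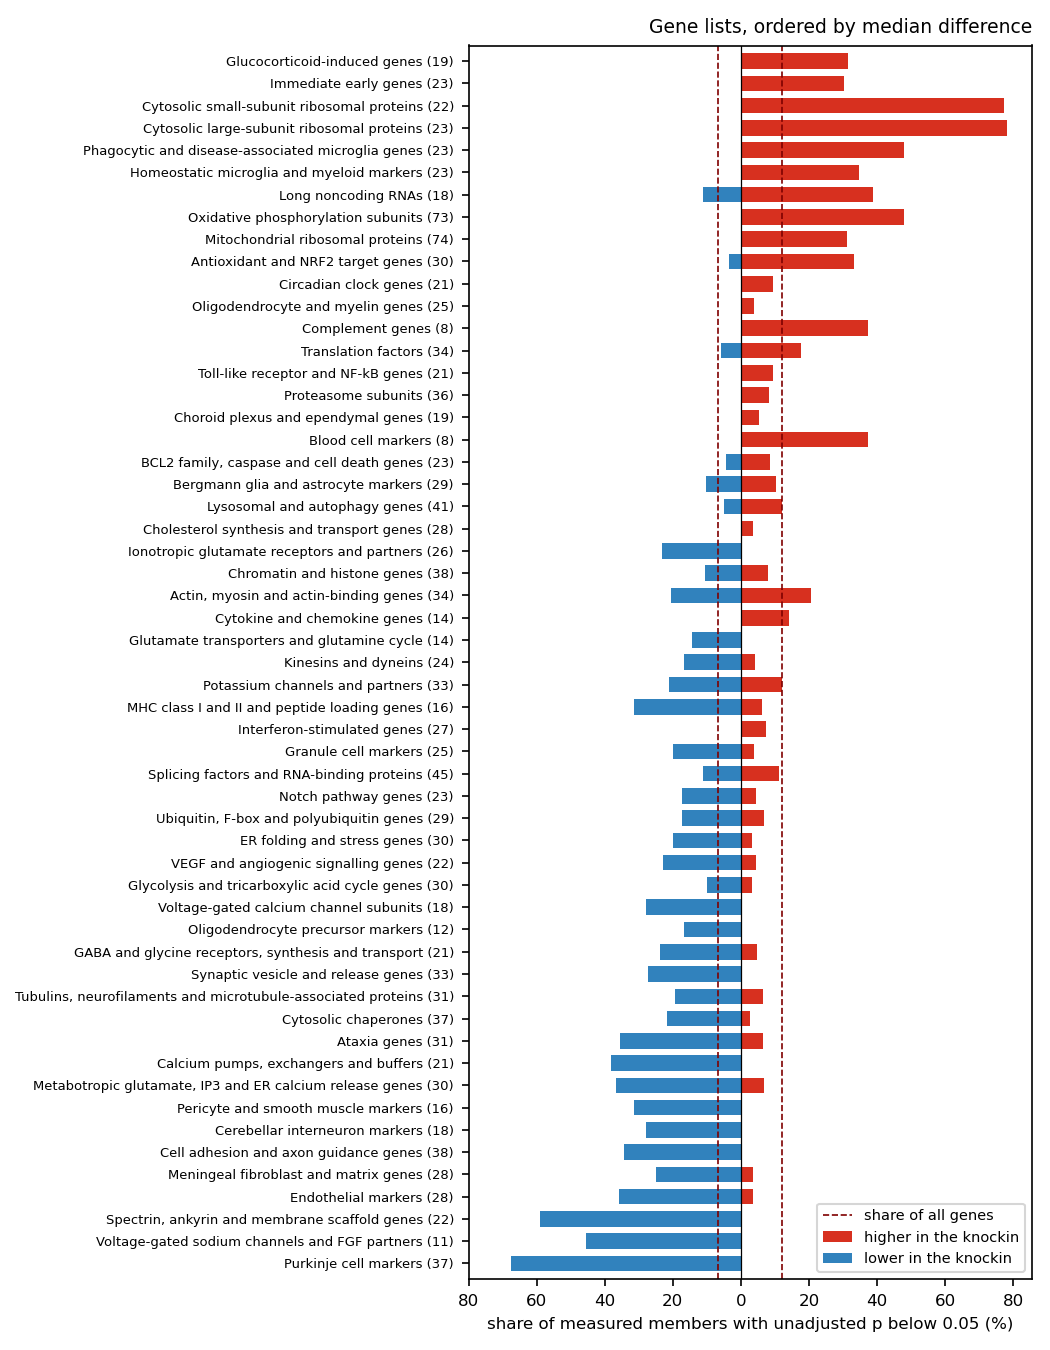
Share of each list's measured members (number in brackets) with an unadjusted p below 0.05, higher to the right and lower to the left (x axis, %), lists ordered by median difference. Dashed lines mark the shares of all genes, 12% and 6.7%; ribosomal proteins reach 77.3% and 78.3% higher and Purkinje markers 67.6% lower.

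Trem2, the called gene of the phagocyte lists, has in its RefSeq promoter window the motif GAGGAAG, of the kind that the myeloid factor PU.1 binds, searched on both strands. It lies there in its reverse complement, which the capitals mark, within chr17:48346340-48346386 of GRCm38.p6 (plus strand).
Trem2: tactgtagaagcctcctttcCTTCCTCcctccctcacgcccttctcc
The motif was found in 4152 of 27025 promoter windows of 300 bases (15.4%), in 7 of 19 homeostatic microglia genes with an entry (36.8%) and in 3 of 19 phagocytic ones (15.8%).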

How the data were processed

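Cerebellar RNA was hybridised to 12 expression arrays, 3 in each of 4 groups set by the sample titles. The deposited values are log2 levels per probe set; per the submitters' processing notes the authors used RMA. Its version is not given in the sources used here. Per the labels' protocols, RNA was purified on columns, treated with DNase and had an integrity number above 5.0 in every sample, and cRNA was made by a one-cycle protocol. No further normalization was applied.

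Of 45101 probe sets, the dimmest 40% were removed (mean log2 level under 1.58 across the 12 arrays). Probe sets with 1 gene symbol in the platform annotation were kept, control probe sets left out, and the brightest probe set taken for each of 12671 genes, of which 12645 matched RefSeq (GRCm38.p6). limma 3.58.1 in R 4.3.3 fitted 1 mean per group to all 12 arrays (8 residual and 4.61 prior degrees of freedom), two-sided, with Benjamini-Hochberg adjustment over all genes. The fit was tested on simulated data. The labels state 3 mice per group, and p-values measure the spread between these samples. All pairs of arrays correlated at 0.98 or more.

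Genes named are all those called, the 15 largest differences in each direction among uncalled genes with an adjusted p below 0.1 and no overlap, up to 4 of each list by smallest p, and Cacna1a, except 1 gene that is not reported here; clones are named only where called, and Gabra6, Pcp2, Pvalb, host genes, neighbours of Cacna1a, some list members beyond the first 4 and noncoding groups were named after their values were seen. The comparison, its lists and the naming rule were chosen with earlier results of these data known.

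Alternatives were other filters, probe set rules and normalizations, an intensity trend, array weights, the 6 arrays alone, a replicate block, the 18S signal as covariate, removal of a trend with span, leaving out each array and, added after seeing the data, all probe sets together.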

Additional observations from a re-analysis of the deposited data

How the results depend on the processing

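The 24 calls (10 higher, 14 lower) depended on the settings. Leaving out 1 array gave 4 to 707 calls, 0 to 379 higher and 4 to 328 lower, and 0 to 12 for the difference of the 118Q and 11Q effects. Removing the lowest 60% of probe sets gave 150 calls (76 higher, 74 lower), quantile normalization 43 (30 lower), centring arrays on their median 10 (3 higher, 7 lower), an intensity trend 200 (92 higher, 108 lower), and array weights, whose estimation stopped before it converged, 3134 (2109 higher, 1025 lower, 614 for the difference of effects). Averaging each gene's probe sets gave 9 lower, and single probe sets 2 higher. The 6 arrays alone and the 18S covariate each gave 0 calls, 0 higher and 0 lower, and removal of the span trend 7 (0 higher, 7 lower). All probe sets together gave 605 (127 higher, 478 lower, 26 for the difference). An adjusted p below 0.1 gave 391 (210 higher, 181 lower), and a fold of 1.5 or more at an unadjusted p below 0.05 gave 315 (125 higher, 190 lower, 440 for the difference). Of the 391 genes, 356 had the same sign with the 18S covariate, 390 with the span trend removed and 349 with the stricter filter, which tests fewer genes. Under the other refits all 391 had it. The intensity trend, the 6 arrays alone, the replicate block and the fits of single or all probe sets keep each difference as it is. Leaving out an array cannot turn the sign of a gene without overlap, and 388 of the 391 were such genes. The kept sign is therefore no further support there. The cause of the changes between settings was not tested. Median centring raised the median of all genes from 0.06 to 0.08 and turned the split of calls from 10 against 14 to 3 against 7.

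Replicate numbers did not pair the samples: deviations of same-numbered knockin and wild type arrays correlated at -0.08, -0.11 and -0.03. Arrays with unlike numbers correlated from -0.25 to 0.32, and whether samples were paired in another order was not tested. With the replicate block 5 genes were called, 0 higher and 5 lower, all among the 24. With 3 arrays a group the median standard error was 0.139, and differences of a single gene near it are not resolved. The smallest fold among the calls was 1.52 for higher and 1.61 for lower genes.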
